A study of Mus musculus with 64 samples.

Results

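The transcripts described here are those of 10 genes of the Myc, Max and Mxd transcription factor network: Myc, Mycn, Mycl, Max, Mxd1, Mxd4, Mxi1, Mnt, Mlx and Mga. They were chosen by name, as the entries whose gene ID carries one of these symbols, and all 10 were found among 36332 genes. RNA was sequenced in 64 libraries of 3 mouse tissues: omental fat, liver and skeletal muscle. In the KO mice, a cross of B6.129 lines, Cre is fused to a receptor that tamoxifen activates (cre/ERT2), is driven body-wide from Gt(ROSA)26Sor, and removes a floxed part of Myc; WT mice were C57/B6. Mice of both genotypes were given tamoxifen on 5 days (75 mg/kg per dose) around weaning, at a weight of at least 15 g, so all groups share the drug while strain background and Cre differ between them. For both fat and liver there were 6 libraries per genotype aged 5 months and 5 per genotype aged 20 months. For muscle there were 4 from KO and 6 from WT mice aged 5 months, and 5 per genotype aged 20 months.

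Libraries held 15.4 to 28.5 M reads on genes. Values are the deposited CPM, a read signal scaled per library whose sum over genes was 0.529 to 1.64 M and was lowest in adipose tissue. At 5 months 2 libraries of each group had Xist and no Y-linked transcripts and are called female here, and all 20-month libraries had Y-linked transcripts. The lowest summed level of adipocyte, hepatocyte or muscle fibre markers in libraries of the labelled tissue lay above the highest level in the other tissues (for adipocytes, 6979 against 712 CPM). Transcripts of the epididymis were present in 4 adipose libraries at 5 months (3 KO, 1 WT) and, at a lower level, in 1 WT muscle library at 5 months. The labels do not say which libraries share a mouse, and p-values measure the spread between libraries.

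Myc and its relatives Mycn and Mycl are basic helix-loop-helix leucine zipper proteins that bind DNA only as a pair with Max, and such pairs activate genes of ribosome production, metabolism and cell division. Max also pairs with the repressors Mxd1, Mxd4, Mxi1, Mnt and Mga, so that activating and repressing pairs compete for Max and for the same DNA motif, the E-box CACGTG. Mlx is the Max-like partner of the glucose-responsive factors Mlxip and Mlxipl and also pairs with some of the repressors. In adult liver, fat and muscle, where few cells divide, Myc is usually low and its antagonists make up much of the network.

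The E-box itself occurs near the start of several of these genes, and the sites are shown because they are the sequence that the network reads. RefSeq promoter windows (GRCm38.p6, 250 bases before to 50 after a start site) were available for 9 of the 10 genes. The motif CACGTG, which reads the same on both strands, was found in 4 of the 11 windows of these genes (Mxi1 has 3), each of another gene, and in 7.15% of all 32851 windows of that length. Each site is given 5′ to 3′ on the strand of the gene with 12 bases on either side, and the capitals mark the motif.
Max: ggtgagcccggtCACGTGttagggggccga
Mlx: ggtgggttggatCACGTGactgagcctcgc
Mnt: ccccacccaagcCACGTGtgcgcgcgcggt
Mxd4: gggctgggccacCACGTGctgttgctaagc
The Max site (chr12:76962234-76962263, minus strand) begins with its motif 3 bases before the start site and runs across it. The Mlx motif lies 40 bases before the start site (chr11:101087238-101087267, plus strand). The Mnt motif lies 123 bases before the start site of its window (chr11:74830789-74830818, plus strand), and the Mxd4 motif 219 bases before its start site (chr5:34187912-34187941, minus strand). The windows of Mga, Mxd1, Mxi1, Mycl and Mycn did not contain these letters. A match is a description of the sequence, and binding was not measured.

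Myc (gene ID 17869, chromosome 15, 61985341 to 61990361), the gene inactivated in the KO mice, was lower in KO than in WT adipose tissue and liver at both ages. These are values for the whole gene, in which reads of the deleted and of the remaining exons cannot be told apart. In bulk tissue, fewer cells of a type and less RNA per cell cannot be told apart either. In liver at 5 months the WT libraries ran from 5.46 through a median of 21.2 to 33.7 CPM and the KO libraries from 1.16 through 2.65 to 4.04 CPM. Every KO liver library lay below every WT liver library. The KO mean of 2.59 ± 1.06 CPM (SD, n = 6) was 13.2% of the WT mean of 19.6 ± 10.3 CPM (n = 6), a difference of -2.38 on the log2(CPM + 1) scale (two-sided exact permutation test, p = 0.00216, the smallest this design can give, and 0.00649 adjusted over 6 Myc comparisons). In adipose tissue at 5 months WT libraries ran from 11.2 through 18.7 to 22.8 CPM and KO libraries from 2.87 through 5.03 to 10.5 CPM, and the groups did not overlap. The KO mean there was 32.6% of the WT mean (log2 difference -1.52, exact permutation p = 0.00216, adjusted 0.00649).

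At 20 months the difference between the genotypes in Myc was smaller, from a lower WT level. The 5 WT liver libraries had 5.36, 5.42, 5.47, 5.47 and 7.61 CPM and the 5 KO liver libraries 1.12, 1.75, 2.16, 2.61 and 2.92 CPM. The groups again did not overlap, and the KO mean was 36% of the WT mean (log2 difference -1.16, exact permutation p = 0.00794, adjusted 0.0159). In adipose tissue the 5 WT libraries had 8.1, 10.8, 11.4, 13.2 and 16.3 CPM and the 5 KO libraries 5.14, 6.33, 7.34, 8.28 and 9.72 CPM. The highest KO libraries there reached into the WT range, and the KO mean was 61.5% of the WT mean (log2 difference -0.63, exact permutation p = 0.0238, adjusted 0.0357). In the model across all genes (limma, Benjamini-Hochberg adjustment) neither of these 20-month differences was called, with adjusted p of 0.547 in liver and 1 in adipose tissue.

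In skeletal muscle Myc varied most between libraries of a group, and the exact test did not separate the genotypes. The 6 WT libraries at 5 months ran from 6.15 through a median of 19.6 to 81.3 CPM, and the 4 KO libraries had 5, 7.8, 10.8 and 17.1 CPM. The KO range lay almost within the WT range, with 1 KO library below every WT library. The KO mean was 35% of the WT mean (log2 difference -1.13, exact permutation p = 0.119, adjusted 0.143), a mean that the library at 81.3 CPM raised. At 20 months WT muscle had 4.97, 6.1, 6.65, 8.7 and 13.1 CPM and KO muscle 1.75, 2.9, 5.46, 9.61 and 10.2 CPM, with a log2 difference of -0.49 (exact permutation p = 0.31). Leaving out 1 library at a time moved the 5-month difference in both directions. It was largest in size without the WT library W5S5277, the lowest of its group, at -1.46 with an unadjusted exact permutation p of 0.0317. That fit was picked as the largest, so its p does not replace the exact permutation p of 0.119 with all libraries.

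**Figure D1:**
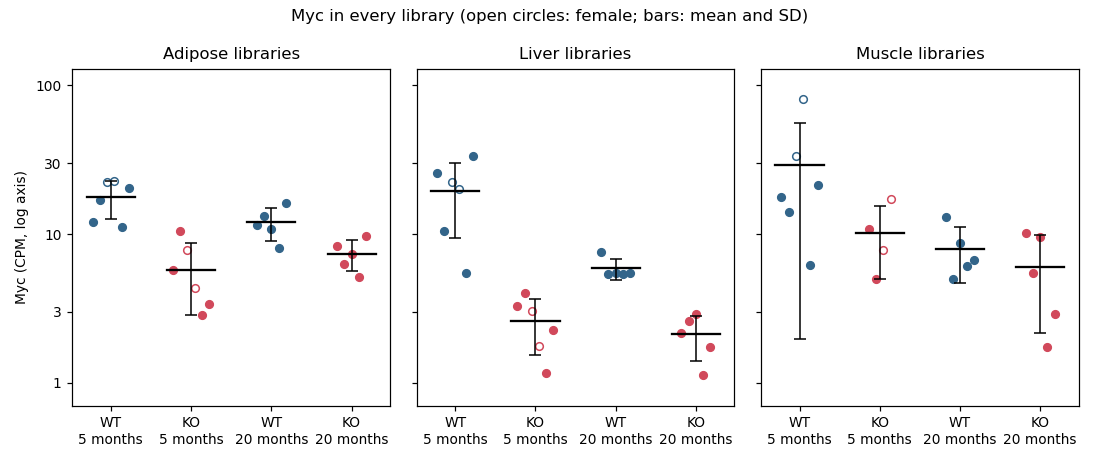
Myc in each of the 64 libraries by tissue, genotype and age, on a log axis in CPM. Filled circles are male and open circles female libraries, and black bars give the mean and SD of each group. KO liver and KO adipose libraries at 5 months lie below all WT libraries of the same tissue and age, while in muscle the groups overlap.

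Ordered by their means, the 12 groups ran for Myc from WT muscle at 5 months (29.1 CPM) through WT liver (19.6 CPM) and WT adipose tissue (17.7 CPM) at the same age down to KO liver at 5 months (2.59 CPM) and at 20 months (2.11 CPM). Each group overlapped with its neighbours in this order, so single steps in it lie within the spread between libraries. By median, WT liver (21.2 CPM) stood above WT muscle (19.6 CPM) at 5 months, whose mean 1 library at 81.3 CPM raised. The order between tissues also depends on the scaling. With each library scaled to a sum of 1 M, limma called Myc between WT adipose tissue and liver, a call not made as deposited. At 5 months KO muscle averaged 10.2 ± 5.21 CPM (n = 4) and KO liver 2.59 ± 1.06 CPM (n = 6), a difference between tissues that was not tested.

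In the fits across all genes, Myc was the only member called between the genotypes. At 5 months 1 of 10 members tested in adipose tissue was called, beside 0.105% of all genes tested, and 1 of 9 in liver, beside 0.0696% of all genes. In muscle at 5 months 0 of 9 were called, beside 0% of all genes. At 20 months 0 of 10 in adipose tissue, 0 of 9 in liver and 0 of 9 in muscle were called, beside 0%, 0.0232% and 0.0302% of all genes. Over the 6 comparisons, 0 of 50 tests of the other members were called by limma, 4 had an unadjusted p under 0.05, and edgeR and DESeq2 on the recovered reads called 0 as well. With limma, Myc in adipose tissue at 5 months had an adjusted p of 0.017, and Myc in liver one of 0.00093. Leaving out the WT adipose library W5F5006 gave an adjusted p of 0.0532, and leaving out the adipose libraries with epididymis transcripts gave -1.10 with 0.135. Without the female libraries, liver Myc had a log2 difference of -2.20 with an adjusted p of 0.0733.

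The 95% intervals show what these comparisons could see for the other members. In liver at 5 months the 8 uncalled members other than Myc had log2 differences of -0.17 to 0.20, and their intervals together spanned -0.63 to 1.04. In muscle at 5 months their differences were -0.07 to 0.27, with intervals between -0.85 and 0.91. In adipose tissue at 5 months they ranged from -0.39 for Mxd4 to 0.40 for Mycl, with intervals between -0.82 and 1.63. The 4 unadjusted p under 0.05 belonged to Mxd4 (log2 difference -0.39, adjusted p = 0.301) and Max (0.19, adjusted p = 0.413) in adipose tissue at 5 months, and to Mnt (0.54, adjusted p = 0.295) and Mxd1 (0.49, adjusted p = 0.317) in muscle at 20 months, all from limma. Mycl in liver at 20 months did not overlap between the genotypes, with 25.6 to 32.6 CPM in KO and 7.82 to 24.8 CPM in WT libraries, but it was not called (log2 difference 0.78, limma adjusted p = 0.879), and 2.46% of all genes tested there did not overlap either.

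**Figure D2:**
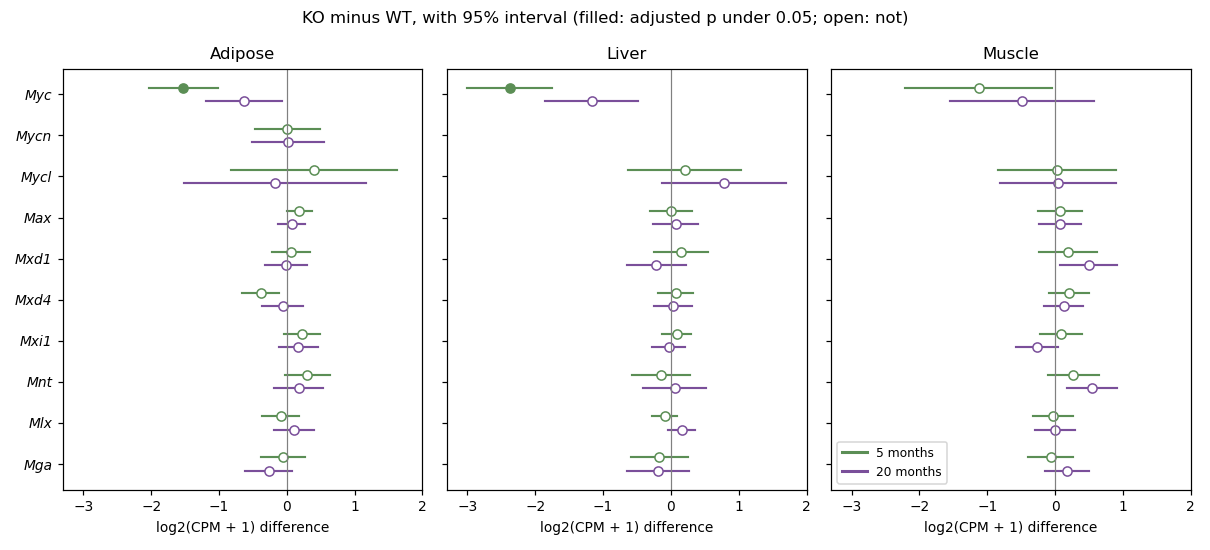
KO minus WT difference of each member in log2(CPM + 1), by tissue, with its 95% interval, at 5 and at 20 months. Filled points passed an adjusted p of 0.05 in limma, which were Myc in adipose tissue and in liver at 5 months. The intervals of Mycl in adipose tissue and liver are the widest of those panels.

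Of the other relatives of Myc, Mycl (gene ID 16918, chromosome 4, 122995588 to 123002490) was a transcript of adipose tissue and liver, and Mycn (gene ID 18109, chromosome 12, 12936093 to 12941836), known from embryonic and neural tissue, was near the floor of detection. Group means of Mycn lay between 0.192 CPM in WT liver at 5 months and 0.875 CPM in KO adipose tissue at 5 months, and Mycn passed the filter on low values in adipose tissue only. It had no read in 1 WT liver and 1 WT muscle library at 5 months, where 3 reads would have given 0.265 and 0.207 CPM. Mycl at 5 months in WT libraries ran from 6.01 through 21.3 to 71.1 CPM in adipose tissue, from 12.7 through 24.8 to 53.9 CPM in liver and from 0.138 through 0.493 to 5.37 CPM in muscle. All WT adipose and liver libraries lay above all WT muscle libraries. On the log2(CPM + 1) scale Mycl was 3.57 higher in adipose tissue than in muscle (limma adjusted p = 7.77e-07) and 3.64 higher in liver than in muscle (limma adjusted p = 4.92e-07).

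Mycl fell with age in KO adipose tissue. KO adipose libraries ran from 13.9 through 36.4 to 84.1 CPM at 5 months and had 2.07, 3.65, 3.96, 7.46 and 18.4 CPM at 20 months. Of the older libraries, 1 reached into the range of the younger ones. The log2 difference was -2.37 (SE 0.62, limma adjusted p = 0.0175), and the call was lost without the KO library K18F26 (-2.09, adjusted p = 0.0652) or K18F30 (-2.27, adjusted p = 0.0504). In WT adipose tissue Mycl was 32.2 ± 25.3 CPM (n = 6) at 5 months and 8.79 ± 8.49 CPM (n = 5) at 20 months, a log2 difference of -1.79 that was not called (limma adjusted p = 0.0632). Markers of hepatocytes moved with age in these libraries, and liver itself had Mycl (30.6 ± 19.5 CPM in WT at 5 months, n = 6): the sum of 7 hepatocyte markers ran from 1243 to 3837 CPM in KO adipose libraries at 5 months and from 109 to 1383 CPM at 20 months, with none of the 7 at 0, against 1.12e+05 to 1.79e+05 CPM in KO liver at 5 months. Their part in the fall of Mycl was not tested.

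Max (gene ID 17187, chromosome 12, 76937269 to 76962323), the shared partner, fell with age in muscle. WT muscle libraries ran from 26.9 through 47.4 to 54.6 CPM at 5 months and had 26.2, 27.7, 28.8, 30.4 and 30.6 CPM at 20 months. The 5 older libraries lay within 26 to 31 CPM, a level that 1 younger library shared. The log2 difference was -0.59 (SE 0.14, limma adjusted p = 0.0111), it was called in 11 of 11 fits that left out 1 library, and without the female libraries it was -0.45 with an adjusted p of 0.0852. KO muscle had 43.4, 46, 47.3 and 47.9 CPM at 5 months and 25.7, 25.9, 30.7, 31 and 39.9 CPM at 20 months. The log2 difference there was also -0.59 (limma adjusted p = 0.0354), but it was called in 1 of 9 fits that left out 1 library, with adjusted p up to 0.103 in the others. The summed level of 7 muscle fibre markers moved with age as well, from 1.97e+05 to 1.99e+05 CPM in KO muscle at 5 months and from 1.65e+05 to 1.87e+05 CPM at 20 months, with none of the 7 at 0. Its part in the differences between ages in muscle was not tested.

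Mlx (gene ID 21428, chromosome 11, 101086707 to 101092207), the other shared partner, was highest in liver. WT libraries at 5 months ran from 37.2 through 39.1 to 45.3 CPM in liver, from 14.2 through 16.0 to 18.7 CPM in adipose tissue and from 10.8 through 13.2 to 16.0 CPM in muscle. Liver stood apart from both other tissues, by 1.57 on the log2 scale against muscle (limma adjusted p = 3.76e-13) and by -1.27 for adipose tissue minus liver (limma adjusted p = 8.04e-11). With each library scaled to a sum of 1 M, Mlx in liver stayed above muscle (1.29) but was not called against adipose tissue (adipose minus liver -0.17, adjusted p = 0.168). With age Mlx fell in WT adipose tissue by 0.45 (log2, limma adjusted p = 0.0393) and in WT liver by 0.33 (limma adjusted p = 0.0327). The WT liver libraries at 20 months had 28.7, 30.2, 32.8, 33.5 and 34.9 CPM and the WT adipose libraries 9.61, 10.1, 11.6, 13.2 and 13.5 CPM. With each library scaled to a sum of 1 M the difference in WT liver was -0.12 (adjusted p = 0.44). Both calls were kept in 4 of 11 fits that left out 1 library, and neither was kept without the female libraries (adjusted p of 0.0973 and 0.19).

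Among the Max-binding repressors, Mxd1 (gene ID 17119, chromosome 6, 86647044 to 86669234), Mxd4 (gene ID 17122, chromosome 5, 34176580 to 34187710) and Mxi1 (gene ID 17859, chromosome 19, 53310128 to 53373293) belong to the Mxd family, which recruits Sin3 corepressors and is tied to differentiation. Mnt (gene ID 17428, chromosome 11, 74830806 to 74845725) is a more widely expressed antagonist of the same kind. Between tissues they followed different orders. In WT mice at 5 months Mxi1 averaged 67.1 ± 12.3 CPM in muscle, 45.2 ± 7.29 CPM in liver and 30.4 ± 6.56 CPM in adipose tissue (n = 6 each), whereas Mxd4 averaged 20.3 ± 4.64 CPM in muscle, 33 ± 6.31 CPM in liver and 38.7 ± 7.88 CPM in adipose tissue. Liver against muscle, Mxi1 was lower by 0.55 and Mxd4 higher by 0.68 (log2, limma adjusted p of 0.000526 and 0.000219), and Mxd1 (-0.86) and Mnt (-0.56) were lower as well.

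The tissue comparisons have a high background. In liver against muscle 8 of 9 members were called (3 higher, 5 lower), beside 70.2% of all genes, in adipose tissue against liver 4 of 9, beside 66.8%, and in adipose tissue against muscle 4 of 9, beside 69.2%. Scaling each library to a sum of 1 M moved the median difference of all genes from -0.05 to 0.996 in adipose tissue against liver and from 0.10 to 0.90 in adipose tissue against muscle, since adipose columns had the lowest sums. Under that scaling Mxi1 was 0.55 higher in adipose tissue than in liver, where it was 0.56 lower as deposited, so its direction between these tissues depends on the scaling. Liver against muscle, the median moved from 0.03 to -0.20, and all 8 calls kept their direction.

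With age, none of the 4 repressors was called in liver, and in WT muscle 2 of them fell. Mnt in WT muscle ran from 21.5 through 35.2 to 40.7 CPM at 5 months and was 18.4, 20.8, 21.1, 21.9 and 26.1 CPM at 20 months. All but 1 of the younger libraries lay above all older ones, with a log2 difference of -0.61 (SE 0.17, limma adjusted p = 0.0194). The call was lost without the WT library W18S42 (adjusted p = 0.0591), whose 7 hepatocyte markers summed to 2817 CPM where the other 4 libraries of its group had 0.152 to 8.79 CPM, and without the female libraries (-0.57, adjusted p = 0.0906). Mxd1 in WT muscle was 10.6 ± 2.46 CPM (n = 6) at 5 months and 6.8 ± 1.07 CPM (n = 5) at 20 months, a fall of 0.56 on the log2 scale at the edge of the threshold (limma adjusted p = 0.0482). Of the 11 leave-one-out fits, 1 called it, the fit without W5S5277 (adjusted p = 0.00742). Without W18S42 the adjusted p was 0.0734. In KO adipose tissue Mxd4 rose from 23.3 through 27.9 to 36.0 CPM at 5 months to 37.7, 38.4, 39.8, 45.8 and 48.5 CPM at 20 months, with a log2 difference of 0.52 (SE 0.14, limma adjusted p = 0.0188). The adjusted p was 0.0623 without the KO library K18F26 and 0.0607 without K18F29. WT adipose tissue was at 38.7 ± 7.88 CPM (n = 6) and 43.8 ± 3.76 CPM (n = 5) at the same ages, where Mxd4 was not called (0.19, limma adjusted p = 0.353).

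Mga (gene ID 29808, chromosome 2, 119872503 to 119970129) encodes a very large Max partner that also carries a T-box domain and works in a Polycomb-type repressor complex. It rose with age in muscle and adipose tissue of both genotypes, the only member to do so. WT muscle libraries ran from 28.7 through 40.97 to 44.2 CPM at 5 months and had 54.9, 62, 67, 73.9 and 89.4 CPM at 20 months. KO muscle libraries had 27.4, 36.1, 38.8 and 41.1 CPM at 5 months and 65.3, 73.4, 73.9, 82.1 and 96.1 CPM at 20 months. In both genotypes every older muscle library lay above every younger one, as was so for 3.32% of all genes tested in WT and 8.89% in KO. The log2 differences were 0.87 in WT (SE 0.15, limma adjusted p = 0.00171) and 1.11 in KO (SE 0.16, limma adjusted p = 0.00146). Of the fits that left out 1 library of the comparison, 11 of 11 in WT and 9 of 9 in KO called it. The call was also kept in all 29 alternatives, which included leaving out the female libraries or a library of the other genotype.

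In WT adipose tissue Mga ran from 19.4 through 29.7 to 34.7 CPM at 5 months and had 44.6, 46.4, 48.5, 51.7 and 52.9 CPM at 20 months, again with no overlap, as was so upwards for 7.06% of all genes. The log2 difference was 0.74 (SE 0.16, limma adjusted p = 0.00718). It was called in 11 of 11 fits that left out 1 WT library and in all 31 alternatives, between 0.63 and 0.82. KO adipose libraries ran from 18.8 through 28.8 to 37.2 CPM at 5 months and had 30.3, 41.6, 41.6, 42.9 and 47.1 CPM at 20 months. The groups overlapped through 1 older library, and the rise was 0.53 (SE 0.16, limma adjusted p = 0.0346). It was called in 18 of 31 alternatives, which include fits that left out a WT library. Of the fits that left out 1 KO library, 3 of 11 called it, with adjusted p up to 0.0884 in the others. In liver Mga was 26.3 ± 9.03 CPM (n = 6) and 28.5 ± 3.99 CPM (n = 5) in WT and was not called in either genotype. Markers of other cells moved with age in WT adipose tissue: the sum of 6 T cell markers ran from 6.59 to 17.3 CPM at 5 months and from 18.4 to 61.8 CPM at 20 months, with none of the 6 at 0. In KO adipose tissue that sum ran from 15.5 to 30.2 CPM at 5 months and from 18.6 to 27.3 CPM at 20 months, ranges that overlapped. Its part in the rise of Mga was not tested.

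**Figure D3:**
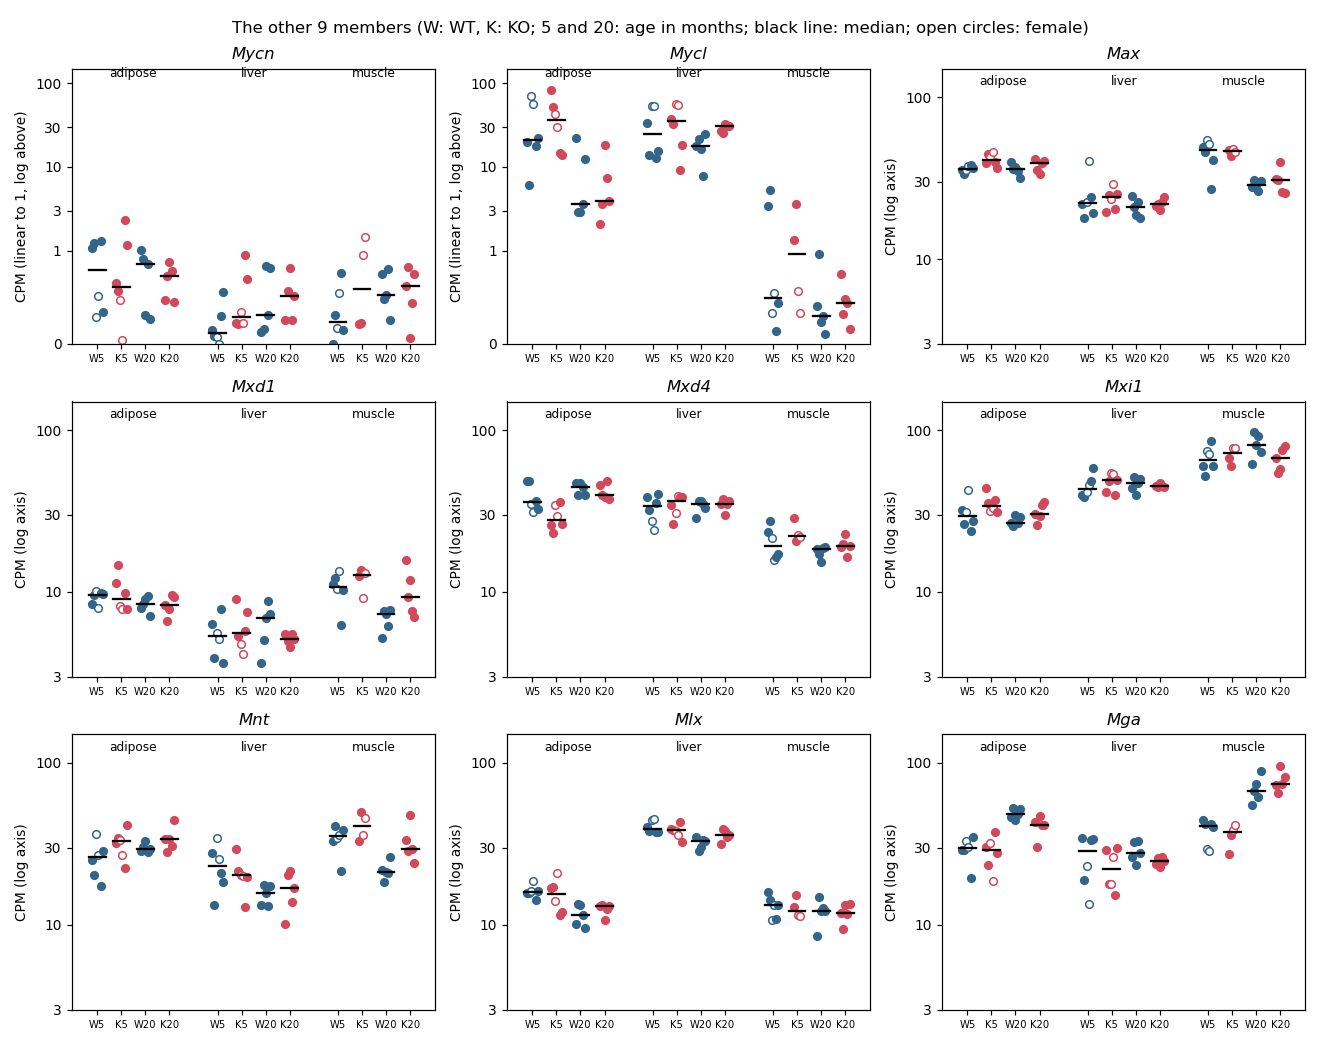
CPM of the other 9 members in every library, by tissue and group (W, WT; K, KO; 5 and 20, months), on log axes that are linear below 1 CPM for Mycn and Mycl. Black lines are group medians and open circles female libraries. Mga stands higher at 20 months in adipose tissue and muscle, Mycl is near 0 in muscle, and Mlx is highest in liver.

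Myc itself was lower at 20 than at 5 months in WT liver and muscle. In WT liver it fell from 19.6 ± 10.3 CPM (n = 6) to 5.87 ± 0.975 CPM (n = 5), a log2 difference of -1.40 (SE 0.32, limma adjusted p = 0.0108). 5 of the 6 younger libraries lay above every older one, and the sixth, at 5.46 CPM, lay among them. The call was kept in 11 of 11 fits that left out 1 library and not without the female libraries (-1.25, adjusted p = 0.0765). In WT muscle Myc fell by 1.41 on the log2 scale with an adjusted p of 0.0492 in limma. Without the female library at 81.3 CPM, W5S5042, that difference was -1.03 with an adjusted p of 0.11. Without W18S42 it was -1.28 with an adjusted p of 0.119, and it was called in 2 of 11 such fits. In WT adipose tissue (-0.51, limma adjusted p = 0.188) and in the 3 KO tissues (0.39 in adipose tissue, -0.18 in liver, -0.77 in muscle) Myc was not called. The difference between the genotypes in the age effect of Myc was 1.21 in liver (95% interval 0.29 to 2.14) and 0.89 in adipose tissue (0.14 to 1.65), and neither passed (limma adjusted p of 0.991 and 0.998).

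Counted over all members, ageing called 2 of 10 in WT adipose tissue (Mlx lower, Mga higher), beside 10.8% of all genes tested, and 3 of 10 in KO adipose tissue (Mycl lower, Mxd4 and Mga higher), beside 14.2%. In liver it called 2 of 9 in WT (Myc and Mlx lower), beside 7.19%, and 0 of 9 in KO, beside 2.99%. In KO liver 0 members had an unadjusted p under 0.05 in limma, and edgeR and DESeq2 called 0. In muscle it called 5 of 9 in WT, beside 18.6%, and 2 of 9 in KO (Max lower, Mga higher), beside 5.57%. In WT muscle 4 of the 5 were lower (Myc, Max, Mxd1 and Mnt), where 7.68% of all genes were called lower, and the median of the 9 members was -0.56 beside 0.03 over all genes tested. None of the 28 tests of a difference in the age effect between the genotypes was called by limma, edgeR or DESeq2, beside 0% of all genes in limma, and 2 had an unadjusted p under 0.05 in limma, both for Myc. The ageing and the genotype comparisons share libraries, so their values are not independent of each other.

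**Figure D4:**
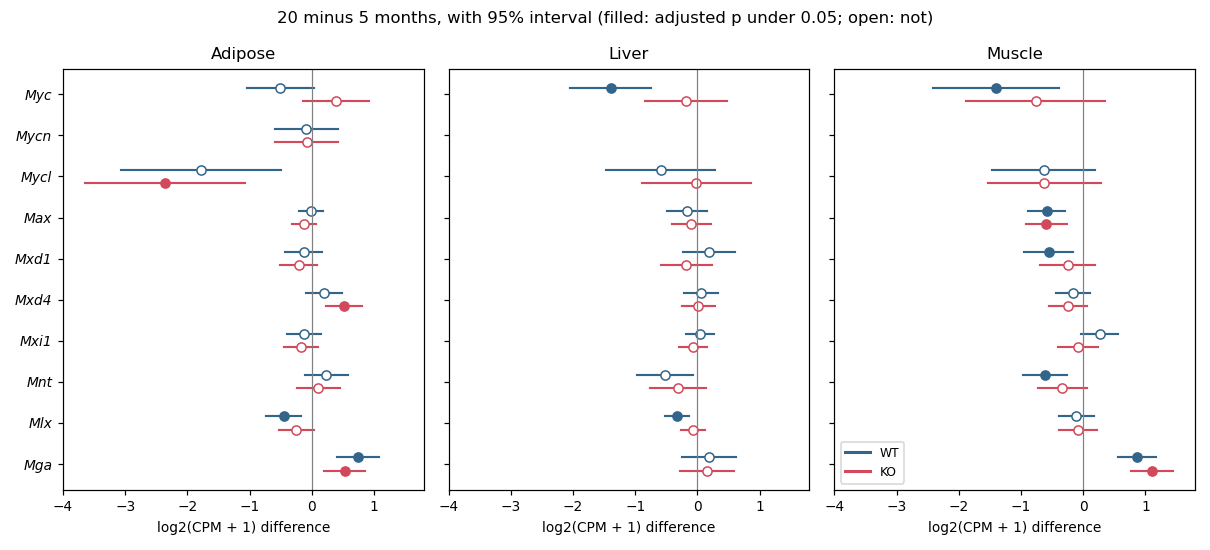
Difference between 20 and 5 months of each member in log2(CPM + 1), by tissue, with its 95% interval, in WT and KO mice. Filled points passed an adjusted p of 0.05 in limma. Mga lies above 0 in adipose tissue and muscle of both genotypes, and Max lies at -0.59 in muscle of both.

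The ratio of Myc to the repressors differed between groups mostly through Myc. Mxd1, Mxd4, Mxi1 and Mnt together had group medians of 102 to 144 CPM. Myc as a percentage of that sum had a median of 20.3% in WT liver at 5 months, 5.2% in WT liver at 20 months, and 2.36% and 2.26% in KO liver at the same ages. In adipose tissue the medians were 18.1% and 10.4% in WT and 4.75% and 6.69% in KO at 5 and 20 months. In muscle they were 15.5% and 5.28% in WT and 6.52% and 4.88% in KO. The medians of WT at 20 months lay between those of younger WT and of KO in liver and adipose tissue. These percentages compare read signals of genes with different lengths and say nothing of protein.

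**Figure D5:**
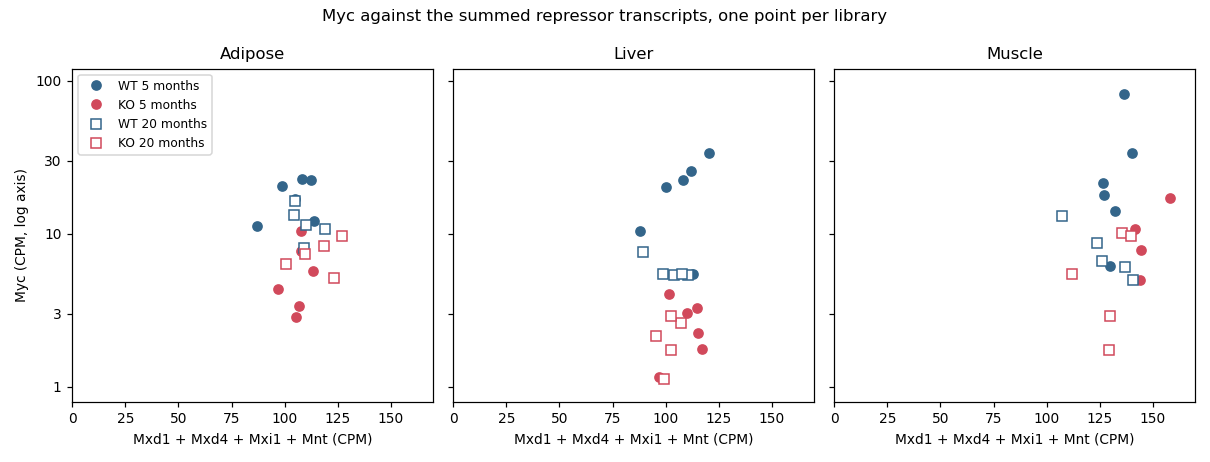
Myc (CPM, log axis) against the summed CPM of Mxd1, Mxd4, Mxi1 and Mnt, with 1 point per library, by tissue. Circles are 5 and open squares 20 months, blue WT and red KO. Libraries spread along the Myc axis, while the group medians of the repressor sum lie between 102 and 144 CPM.

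Levels of different members can be compared per length only. Per kilobase of exon, WT adipose tissue at 5 months was led by Max (18.5 ± 0.845 CPM per kb, n = 6), followed by Mxd4 (9.96 ± 2.03), Mycl (8.81 ± 6.93), Mlx (8.12 ± 0.73) and Myc (7.21 ± 2.09), whose ranges overlapped. Mycl, from 1.64 to 19.4 CPM per kb, also reached into the range of Max, from 17.2 to 19.6 CPM per kb. In WT liver Mlx led with 20.4 ± 1.86 CPM per kb ahead of Max with 12.4 ± 4.22, and their ranges met in 1 library. In WT muscle Max led with 22.9 ± 5.06 CPM per kb, and Myc (11.9 ± 11.1) and Mxi1 (10.1 ± 1.85) followed with ranges that overlapped each other and, for Myc, that of Max. Mycn was the lowest member in each of the 3 tissues, with at most 0.283 CPM per kb on average.

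The other genes of the network come from lists chosen with earlier results of these data known. Of Mxd3, Mlxip and Mlxipl, the last, also known as ChREBP, the glucose-responsive partner of Mlx in liver and fat, rose with age in liver of both genotypes. It went from 126 ± 20.4 to 228 ± 56.3 CPM in WT (log2 difference 0.82, limma adjusted p = 0.00613) and from 124 ± 20.9 to 231 ± 55.7 CPM in KO (0.88, adjusted p = 0.00858), and fell in KO adipose tissue from 39.8 ± 7.59 to 23.2 ± 3.76 CPM (-0.74, adjusted p = 0.0246). Mlxip was not called by limma between ages or genotypes in any tissue, although DESeq2 called it with age in WT muscle, and Mxd3 passed the filter in none of the 3 tissues.

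Among 26 cofactors and turnover factors of Myc, 0 were called between the genotypes in any tissue or age by limma or edgeR, while DESeq2 called 1 of 154 tests, and 14 tests had an unadjusted p under 0.05 in limma. With age, 5 of 25 tested were called in WT muscle, a share near the 18.6% of all genes called there. Aurka, a mitotic kinase that stabilises Myc proteins, rose by 1.29 (log2, limma adjusted p = 0.00228) from 1.94 ± 0.965 CPM, and Fbxw7, the ubiquitin ligase subunit that marks Myc for degradation, rose by 0.73 (limma adjusted p = 0.0103). Paf1, an elongation factor, fell there by 0.52 on the log2 scale (limma adjusted p = 0.01). The corepressor gene Ncor1 rose in WT adipose tissue (0.90, limma adjusted p = 0.0178) and in KO muscle (0.58, limma adjusted p = 0.0252), where it was the 1 gene of the list called by limma and DESeq2 called 4. In WT adipose tissue Bptf, a chromatin remodeler, rose as well (0.64) and Ruvbl2, an ATPase of Myc-binding complexes, fell (-0.42). In WT liver Ruvbl1 (-0.59) and Paf1 (-0.47) fell. By limma 0 of 26 were called in KO adipose tissue, beside 14.2% of all genes, and 0 of 26 in KO liver, beside 2.99%. In each of these, 5 had an unadjusted p under 0.05 in limma. There edgeR called 3 in KO adipose tissue and 0 in KO liver, and DESeq2 4 and 1.

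Of 25 genes known as activated targets of Myc, 1 was called between the genotypes, in adipose tissue at 5 months, where 0.105% of all genes were called. This gene, Dkc1, encodes a component of the small nucleolar and telomerase RNA particles. It was 9.99 ± 1.71 CPM in KO mice there, where WT had 16.1 ± 1.63 CPM (log2 difference -0.64, limma adjusted p = 0.043). Over the 150 tests of the list, edgeR called none and DESeq2 called 3. In limma 28 of these tests had an unadjusted p under 0.05, among them 11 of 25 in liver at 5 months. The share of all genes at that unadjusted threshold is not given here, for this list or the others. Such counts are descriptions and cannot be read as an excess over all genes. At 5 months the list's median log2 difference, KO minus WT, was -0.14 for adipose tissue (-0.04 over all genes), -0.18 for liver (0.01) and -0.16 for muscle (0.01). With age 5 of 25 were called in WT liver, where 7.19% of all genes were called, and 5 of 25 in WT adipose tissue, where 10.8% were, all lower. The largest falls were those of the nucleolar genes Rrs1 (-0.93) and Nolc1 (-0.74) in liver, and of the DNA repair enzyme Apex1 (-0.69) and the cell cycle kinase Cdk4 (-0.61) in adipose tissue. In KO adipose tissue Cdc25a (-0.56) and Prmt1 (-0.48) fell, 2 of 25, beside 14.2% of all genes called. In KO muscle Shmt2 (-0.37) fell, 1 of 25, beside 5.57%. In KO liver limma called 0 of 25 (3 at an unadjusted p under 0.05), beside 2.99% of all genes, edgeR 0 and DESeq2 1. In WT muscle Cdc25a (0.71) and Dkc1 (0.47) rose and Fbl (-0.54) fell. Of 7 genes known as repressed by Myc, 0 were called between the genotypes by limma, edgeR or DESeq2. The stress gene Gadd45a rose with age in KO adipose tissue (1.23, limma adjusted p = 0.00638) and WT liver (0.93, limma adjusted p = 0.041), and Ndrg1 fell in WT muscle (-0.55, limma adjusted p = 0.0137).

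Over the 33 WT libraries, after the mean of each group was subtracted, the correlation of log2(CPM + 1) between members ran from -0.41 for Max and Mga to 0.52 for Mycl and Mnt. Libraries differ in depth and, at 5 months, in sex within a group, which can enter these values, and they are descriptions. Among 11330 genes that passed the filter in every tissue, the pattern of Myc was most like those of Socs3 (r = 0.78), the feedback inhibitor of cytokine signalling, Sbno2 (0.77), Arid5b (0.76), Uck2 (0.76) and Kdm5c (0.76). The highest likeness of any member was that of Mga to Kmt2c, a histone methyltransferase gene (r = 0.89). Mxi1 was most like Pura (0.81), Mycl like Ybx3 (0.80), Mnt like Osbp2 (0.80), Max like Ubb (0.74), Mxd4 like Ptpn11 (0.74), Mlx like Zfp511 (0.73) and Mxd1 like Mid1ip1 (0.72).

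Pvt1, the noncoding gene that neighbours Myc on chromosome 15, did not follow Myc with age in WT liver, where it was 1.19 ± 0.564 CPM (n = 6) at 5 months and 1.3 ± 0.282 CPM (n = 5) at 20 months (limma adjusted p = 0.806). Between the genotypes it was called at 5 months, in adipose tissue with a KO mean of 11.6 ± 4.88 CPM against 2.12 ± 0.673 CPM (n = 6 each, log2 difference 1.94, limma adjusted p = 0.000102) and in liver with 5.07 ± 1.92 against 1.19 ± 0.564 CPM (1.45, limma adjusted p = 0.00215). In KO adipose tissue it fell with age (-0.74, limma adjusted p = 0.0384). In KO liver at 20 months it had 2.33 to 5.17 CPM against 1.05 to 1.73 CPM in WT, without overlap, as was so for 2.46% of all genes tested there. It was not called in that comparison (log2 difference 0.95, limma adjusted p = 0.325). In adipose tissue at 20 months Pvt1 had 4.36 to 8.72 CPM in KO and 2.22 to 3.14 CPM in WT, and was not called either (0.97). In muscle at 5 months, where 0% of all genes were called, the Pvt1 means were 4.65 ± 0.809 CPM in KO and 2.99 ± 1.03 CPM in WT. In muscle at 20 months they were 4.33 ± 0.601 and 2.8 ± 0.898 CPM.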

How the data were processed

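Polyadenylated RNA was purified with poly-T beads and sequenced from directional libraries, per the labels' protocols. The authors deposited 1 value per gene and library, a read signal whose header calls it CPM; it was used as deposited. Dividing by the value of 1 read gave whole reads for 100% of values (tolerance 0.01), so the files hold reads divided by a factor per library. GRCm38.p6 and mm10 are named in the submitters' processing notes; the aligner and counter are not given in the sources used here. Symbols matched 35336 of 36332 gene IDs.

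Tests covered genes whose CPM exceeded 1 in a number of libraries no smaller than the smallest group (14286 in adipose tissue, 12924 in liver, 13237 in muscle, 11330 between tissues) with limma 3.58.1 in R 4.3.3 on log2(CPM + 1), with 1 mean per group, a trended prior and Benjamini-Hochberg adjustment over all genes, called under 0.05. Fold changes on that scale understate changes of low genes. Myc was also compared by two-sided exact permutation tests, adjusted over 6 comparisons. The limma and edgeR fits of KO against WT at 5 months within a tissue were also run on simulated data. For limma the simulated libraries were scaled to a sum of 1 M, unlike the deposited values. Ageing and tissue comparisons and DESeq2 were not run on simulated data. Alternatives were pseudocounts of 0.1 and 5, no filter, other scalings, edgeR 4.0.16 and DESeq2 1.42.0 on recovered reads, and leaving out libraries. Leaving out the muscle library with epididymis transcripts, and levels per kilobase, were added after seeing the data.

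The members and lists were chosen with earlier results of these data known. Named genes are the members, Pvt1, every gene of a list called where at most 4 were, otherwise the 2 largest rises and falls (1 gene that this rule names is not reported here), and the genes most correlated with a member. Libraries with Xist above 10 CPM are called female. Pairs of libraries within a group differed by a chi-square of at least 14.5 per degree of freedom, so none was treated as a duplicate.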

Additional observations from a re-analysis of the deposited data

Results flagged for a closer look

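Over 112 combinations of a member and a group of libraries, 1 library stood apart from the rest of its group in 4 cases, where chance gives about 1 in 20. Myc in WT liver at 20 months was 7.61 CPM in the library W18L01 and 5.36 to 5.47 CPM in the other 4. Myc in WT muscle at 5 months was 81.3 CPM in the female library W5S5042 and 6.15 to 33.7 CPM in the other 5. Max in WT liver at 5 months was 40.6 CPM in the female library W5L5042 and 17.9 to 24.1 CPM in the other 5. Mlx in KO adipose tissue at 20 months was 10.7 CPM in the library K18F28 and 12.6 to 13.3 CPM in the other 4.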

How the results depend on the processing

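The count of members called moved by over 1.5 times under these alternatives. With each library scaled to a sum of 1 M it was 1 in KO adipose ageing (3 as deposited), 1 in WT adipose ageing (2), 1 in WT liver ageing (2), 1 in KO muscle ageing (2) and 7 in adipose tissue against liver (4), where Mxi1 reversed to 0.55. Without the female libraries it was 0 for liver KO against WT at 5 months (1), 1 in WT adipose, 0 in WT liver, 1 in KO muscle and 1 in WT muscle ageing (5). With no filter it was 1 in WT adipose, 1 in KO muscle and 3 in WT muscle ageing. DESeq2 called 5 in KO adipose ageing. Without epididymis libraries it was 0 for adipose KO against WT at 5 months (1) and, for muscle, 3 in WT muscle ageing. Leaving out 1 library gave 0 to 3 in KO adipose, 1 to 3 in WT adipose, 1 to 2 in WT liver, 1 to 2 in KO muscle and 2 to 5 in WT muscle ageing, and 0 to 1 for adipose KO against WT at 5 months. The cause was not tested; fewer libraries also lower the power.

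Myc at 20 months was not called by models across all genes. In adipose tissue limma gave -0.63, edgeR -0.70, DESeq2 -0.71 and TMM factors -0.67, each with an adjusted p of 1. In liver limma gave -1.16 (adjusted p = 0.547), edgeR -1.48 (0.424), DESeq2 -1.49 (0.05) and TMM factors -1.08 (0.603). In muscle at 5 months, leaving out 1 library moved the Myc difference between -1.46 and -0.75. Of the other values, 443 counts and Myc differences kept their call or stayed within 1.5 times, and 336 of 381 single-gene values kept direction and call.

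Numbers recur across tissues in the labels, which do not say what they mark. Over 28 same-number pairs the correlation of deviations from group means ran from -0.24 to 0.40 (median 0.16), with 20 over 0.1, against a median of -0.04 for 164 other pairs. With the number as a replicate block in the tissue comparisons, 4, 4 and 8 members were called, as without it. KO and WT share no numbers, so no paired analysis was possible between genotypes.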

Other observations

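Between female and male libraries at 5 months, a comparison chosen after the data were seen, the members gave 28 tests and none passed adjustment. The lowest raw p was that of Mycl in liver, with 53.6 to 56.7 CPM in 4 female and 9.23 to 37.3 CPM in 8 male libraries, which did not overlap (log2 difference 1.45, two-sided exact permutation within genotype, p = 0.0133, adjusted 0.28). Myc in muscle was 1.23 higher in female libraries (log2, exact permutation p = 0.0333, adjusted 0.28). All libraries at 20 months were male, so ageing differences that include the 5-month females mix age with sex.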
